A study of Homo sapiens with 9 samples.

Results

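The genes described here encode the proteasome: the subunits of its core and regulatory particle, its activators and inhibitor, and the chaperones that assemble it. They were chosen by symbol, as protein-coding genes whose symbols begin with PSMA, PSMB, PSMC, PSMD, PSME, PSMF1 or PSMG, together with POMP and ADRM1, with pseudogenes left out. Of 52 such symbols, 51 were matched to 1 of the 63677 gene identifiers in the count tables, and PSMB3 was not analysed here. Of the 51, 49 have a known proteasome role, and PSMC3IP and PSME3IP1 match by prefix alone, the first being a recombination cofactor and the second a protein that binds PSME3. They are left out of the counts below, and neither exceeded 59.8 CPM in any library. Of the 49, 47 passed a filter of at least 1 CPM (counts scaled to the library's total) in at least 2 of the 9 libraries, as did 18237 genes in all. PSMA8, the spermatogenic alpha subunit, had 1 count in all 9 libraries together, and PSMB11, the thymic beta subunit, had 0.

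The 26S proteasome degrades proteins that carry ubiquitin chains. Its barrel-shaped 20S core holds outer rings of alpha subunits that gate entry and inner rings of beta subunits, of which PSMB5, PSMB6 and PSMB7 cut the substrate. The 19S cap binds ubiquitin, removes it and threads the unfolded substrate into the core with a ring of ATPases. When proteasome activity falls, the transcription factor NFE2L1 is released from the endoplasmic reticulum and raises most subunit genes together through antioxidant response elements, while interferon replaces the cutting subunits with PSMB8, PSMB9 and PSMB10 to form the immunoproteasome.

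Arsenic is a classical inducer of stress genes that act through such elements, so the proximal promoters were read first. A window of 250 bases before to 50 after the start was found in the RefSeq table (GRCh38.p14) for 43 of the genes. Only the 250 bases before the start were searched, in these genes and in all others. The letters TGACNNNGC, a core of the antioxidant response element, lay on either strand in 11 of 43 windows (25.6%) and in 1822 of 15843 windows of protein-coding genes (11.5%). The heat shock element letters, blocks of GAA, TTC and GAA with any 2 bases between neighbours, lay in 0 of 43 windows against 0.335% of all, and CCAAT in 18 (41.9%) against 34.5%, with none of these searches counting overlaps between motifs. A match is a description of letters in these 250 bases, not a binding site. The matches are printed, with 10 bases on each side, for genes among the 2 highest or the lowest of their role in the ratio of arsenic 15 µM to control and for the ubiquitin receptor ADRM1; PSMD9 was added after its values were seen. Capitals mark the matched letters, and sequences run 5′ to 3′ along the gene's strand, so that a match on the other strand appears as its complement beginning with GC.
PSMD12 (chr17:67366724-67366752, minus strand): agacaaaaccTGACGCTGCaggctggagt
PSME1 (chr14:24136098-24136126, plus strand): atggcagggcTGACCCCGCctcctccatc
PSME4 (chr2:53971009-53971037, minus strand): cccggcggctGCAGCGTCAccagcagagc
PSMD5 (chr9:120843038-120843066, minus strand): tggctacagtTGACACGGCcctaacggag
ADRM1 (chr20:62302749-62302777, plus strand): cgctcccctaTGACACAGCaacaataggg
PSMD9, upstream match (chr12:121888631-121888659, plus strand): cgctactcctGCCGGGTCAccacaggcgc
PSMD9, downstream match (chr12:121888678-121888706, plus strand): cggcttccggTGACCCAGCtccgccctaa
The other genes holding these letters were PSMB9, PSMD3, PSME2, PSMG1 and PSMG2. Among the printed stretches, those of PSME4 and PSMD5 overlap an exon annotated in GENCODE 29.

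All libraries came from HuH-7, a line grown from a human hepatocellular carcinoma, sequenced as total RNA after ribosomal RNA removal on an Ion Torrent Proton instrument. The 9 cultures, 1 library each, were an untreated control, acetaminophen at 10 mM, exosomes isolated from serum (1 ml for a set number of cells), acetaminophen at 10 mM with those exosomes, caffeine at 2 mM, both drugs together at the same doses, 5 µM arsenic, 15 µM arsenic, and 5 µM of arsenic and of copper together. No condition was replicated, so intervals cover counting error of reads alone, and reads without molecular identifiers are not independent molecules. Exposure times and the arsenic compound are not stated in the labels. In bulk RNA, fewer cells and less RNA per cell cannot be told apart.

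Counts on genes ranged from 658725 (acetaminophen with exosomes) to 8227906 (caffeine), with 951816 in the control, and 3 counts corresponded to between 0.351 and 3.82 CPM. The liver marker ALB stood between 3330 and 12610 CPM in all 9 libraries. Of 9 blood markers, LYZ reached 272 CPM and none of the others exceeded 3.86 CPM. PPBP and PF4 had no counts. Of 3 endothelial markers, VWF reached 11.2 CPM and CDH5 1.27 CPM, and PECAM1 had no counts. Of 5 fibroblast and stellate markers, COL1A2 stood between 13.7 and 51.1 CPM. COL3A1 reached 16.6 CPM, PDGFRB 11.1, COL1A1 6.81 and DCN 1.49. Small nucleolar RNA took 35.5% of the counts with arsenic 5 µM, 11.5% with acetaminophen and 3.41% to 8.35% in the other 7 libraries. The 45 proteasome pseudogenes together had at most 18 counts in a library. Levels below are TMM-scaled CPM, where TMM is edgeR's scaling of library sizes.

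The summed level of the 49 genes was highest with arsenic 15 µM and in the control and lowest in both libraries with caffeine. It was 9291 CPM (95% counting interval 9178 to 9404) with arsenic 15 µM, 9253 (9069 to 9441) in the control, 8677 (8566 to 8789) with arsenic plus copper and 8045 (7950 to 8142) with exosomes. It was 6809 (6628 to 6994) with acetaminophen plus exosomes, 6697 (6593 to 6803) with arsenic 5 µM, 6345 (6214 to 6477) with acetaminophen, 4886 (4826 to 4945) with acetaminophen plus caffeine and 4720 (4674 to 4766) with caffeine. The control and arsenic 15 µM intervals overlapped, and both caffeine libraries lay below all others. These intervals do not cover the TMM scaling. As an unscaled share of counts on genes, the 49 genes took 1.01% in the control and 0.868% with arsenic 15 µM. That share was lowest with arsenic 5 µM (0.429%), followed by acetaminophen plus caffeine (0.477%) and caffeine (0.490%). The 2 caffeine libraries were also the most deeply sequenced, and the part of depth in their values was not tested.

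**Figure D1:**
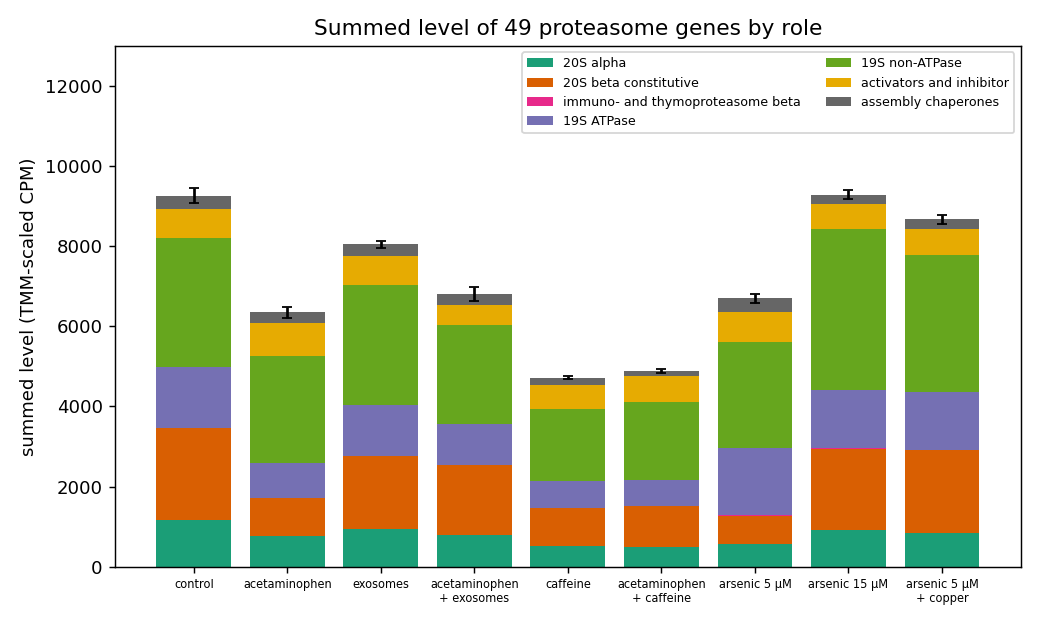
Summed TMM-scaled CPM of 49 proteasome genes in each of the 9 libraries, stacked by role, with black bars for the 95% counting interval of the total. The control and arsenic 15 µM stand at 9253 and 9291 CPM, caffeine at 4720, and the constitutive 20S beta layer is thinnest with arsenic 5 µM.

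By role, the sum of the constitutive beta subunits was 2295 CPM in the control, 2064 with arsenic plus copper, 2032 with arsenic 15 µM, 1822 with exosomes, 1735 with acetaminophen plus exosomes, 1013 with acetaminophen plus caffeine, 944 with caffeine, 928 with acetaminophen and 715 with arsenic 5 µM. The 19S ATPases followed another order, with 1679 CPM under arsenic 5 µM as the highest and 657 with acetaminophen plus caffeine as the lowest. PSMC3 alone made up 1281 of the 1679 CPM. The 12 non-ATPase cap subunits were highest with arsenic 15 µM (4036 CPM) and lowest with caffeine (1804 CPM). The assembly chaperones ranged from 127 CPM with acetaminophen plus caffeine to 348 with arsenic 5 µM. Per kb of transcript, the control medians were 357 CPM per kb for constitutive beta subunits, 129 for non-ATPase and 120 for ATPase cap subunits. They were 72.2 for activators and the inhibitor, 17.5 for chaperones and 0.396 for the immunoproteasome and thymic subunits. The 8 alpha subunits had a median of 21.3 and ran from 0 (PSMA8) to 560 CPM per kb (PSMA7). Of these, PSMA1, PSMA2 and PSMA6 share 53.2%, 52.5% and 81.0% of their transcript with same-strand exons of another gene. The effect on this median was not tested.

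**Figure D2:**
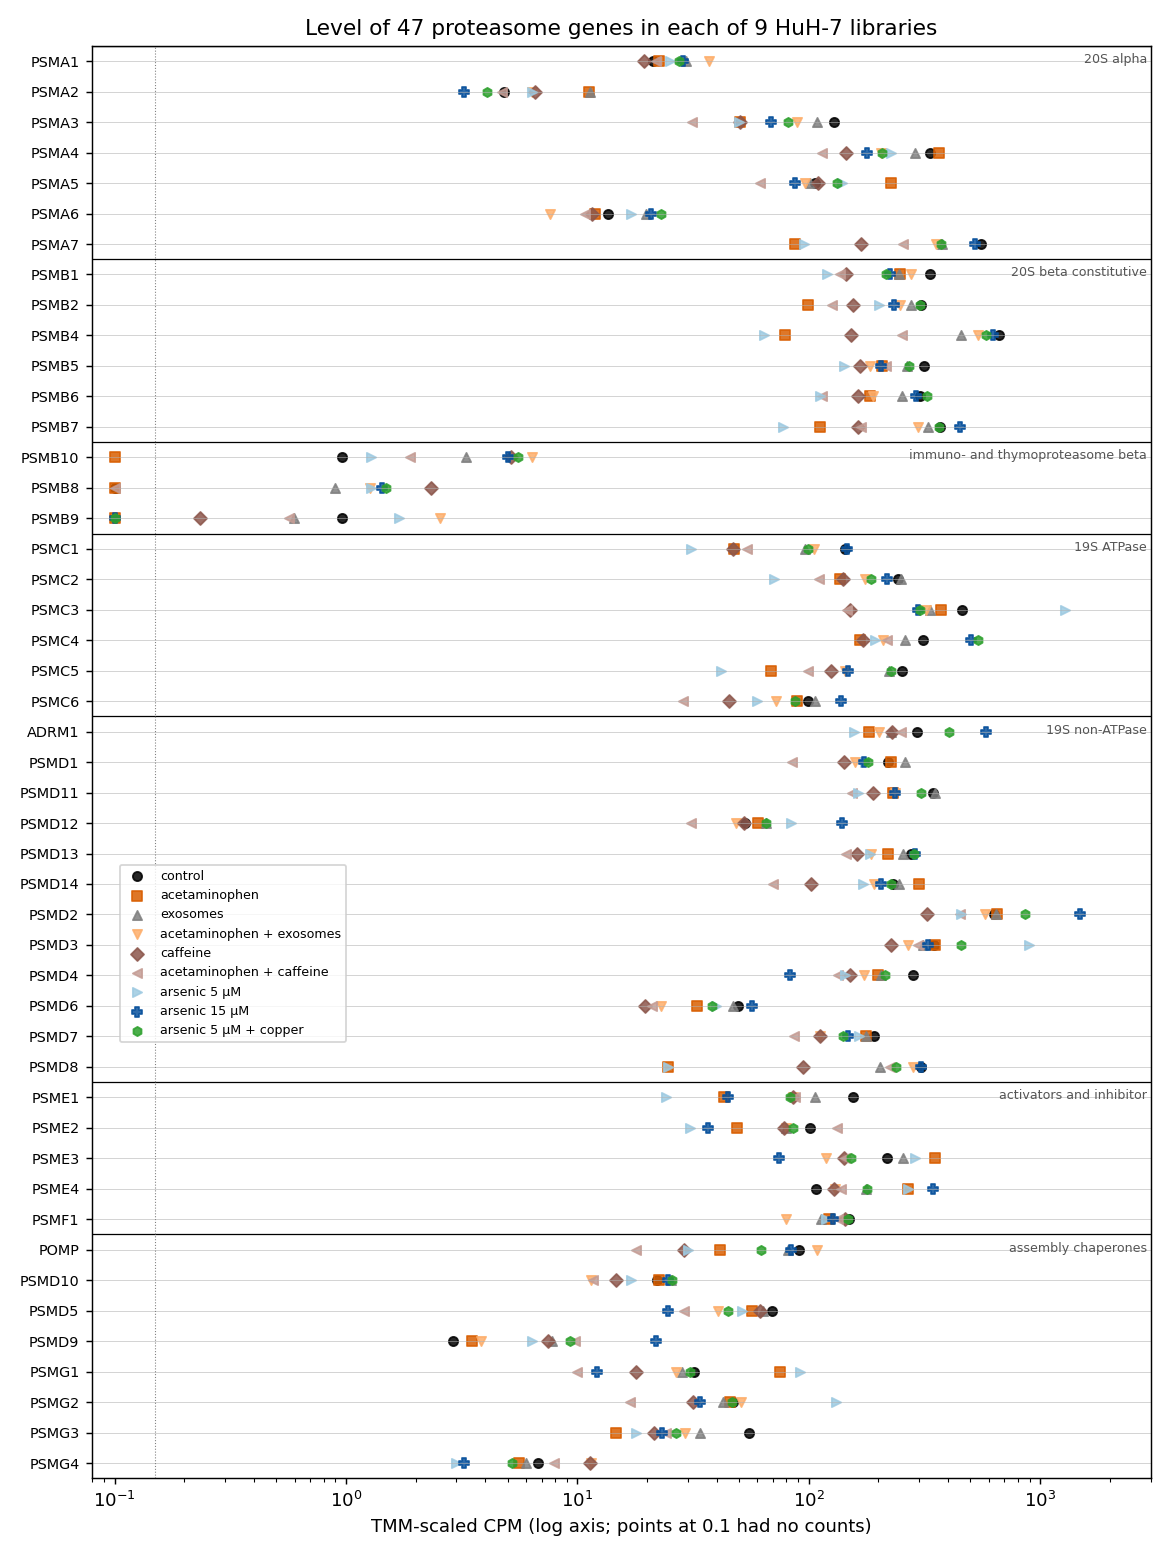
TMM-scaled CPM on a log axis for the 47 tested proteasome genes, grouped by role, with 1 marker per library. PSMB4, PSMD8 and PSMA7 have acetaminophen and arsenic 5 µM at the low end of wide ranges, PSMC3 has arsenic 5 µM far to the right of the other libraries, and PSMB8 to PSMB10 lie far to the left.

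The alpha subunits form the outer rings, and PSMA7 had the highest level among them in the control. PSMA7 stood at 558 CPM in the control, 525 with arsenic 15 µM, 375 with exosomes, 374 with arsenic plus copper, 355 with acetaminophen plus exosomes, 255 with acetaminophen plus caffeine, 168 with caffeine, 95.7 with arsenic 5 µM and 87.0 with acetaminophen. The acetaminophen and arsenic 5 µM libraries were the lowest of the 9, and the control was the highest. PSMA3 was 128 CPM in the control, 109 with exosomes, 89.0 with acetaminophen plus exosomes, 81.6 with arsenic plus copper, 68.8 with arsenic 15 µM, 50.7 with caffeine, 50.5 with acetaminophen, 49.8 with arsenic 5 µM and 31.3 with acetaminophen plus caffeine. PSMA3 was thus highest in the control, and the 4 lowest libraries were acetaminophen plus caffeine, arsenic 5 µM, acetaminophen alone and caffeine alone. PSMA6 stood at 23.0 CPM with arsenic plus copper, 20.8 with arsenic 15 µM, 19.7 with exosomes, 17.0 with arsenic 5 µM, 13.5 in the control, 11.9 with acetaminophen, 11.6 with caffeine, 10.7 with acetaminophen plus caffeine and 7.63 with acetaminophen plus exosomes. PSMA1 was 36.9 CPM with acetaminophen plus exosomes, 29.6 with exosomes, 28.7 with arsenic 15 µM, 27.4 with arsenic plus copper, 25.1 with arsenic 5 µM, 22.5 with acetaminophen, 21.9 with acetaminophen plus caffeine, 21.2 in the control and 19.3 with caffeine. Those 2 genes share 81.0% and 53.2% of their principal transcript with exons of another gene on the same strand in GENCODE 29, as PSMA2 does over 52.5%, and reads there may go uncounted; the effect on their low levels was not tested. The strand setting of the counting is not stated. PSMC1 shares 82% of its transcript with exons of genes on the opposite strand, PSMD7 50.4%, PSMC5 27.2% and ADRM1 24%. In the others of the 49 genes that share was at most 17.3% (PSMG2), and its effect was not tested. The ranges of 7.63 to 23.0 CPM for PSMA6 and 19.3 to 36.9 for PSMA1 rest on 6 to 165 counts per library.

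Of the constitutive beta subunits, PSMB4, a non-catalytic member of the ring, had the widest range. PSMB4 stood at 667 CPM in the control, 627 with arsenic 15 µM, 585 with arsenic plus copper, 539 with acetaminophen plus exosomes, 455 with exosomes, 252 with acetaminophen plus caffeine, 152 with caffeine, 79.3 with acetaminophen and 64.2 with arsenic 5 µM. It was 10.4 times higher in the control than with arsenic 5 µM, and the acetaminophen library stood beside the latter. PSMB5 carries the chymotrypsin-like site, PSMB6 the caspase-like site and PSMB7 the trypsin-like site. PSMB5 was 316 CPM in the control, 272 with arsenic plus copper, 266 with exosomes, 215 with acetaminophen plus caffeine, 206 with acetaminophen, 206 with arsenic 15 µM, 184 with acetaminophen plus exosomes, 166 with caffeine and 142 with arsenic 5 µM. PSMB6 stood at 325 CPM with arsenic plus copper, 303 in the control, 291 with arsenic 15 µM, 254 with exosomes, 189.5 with acetaminophen plus exosomes, 183 with acetaminophen, 163 with caffeine, 114 with acetaminophen plus caffeine and 112 with arsenic 5 µM. PSMB7 was 450.0 CPM with arsenic 15 µM, 369.6 in the control, 364 with arsenic plus copper, 326 with exosomes, 298 with acetaminophen plus exosomes, 169 with acetaminophen plus caffeine, 163 with caffeine, 112 with acetaminophen and 77.4 with arsenic 5 µM. All 3 were lowest with arsenic 5 µM, and PSMB7 exceeded its control level with arsenic 15 µM alone. PSMB1 and PSMB2, the remaining members, had ranges of 119 to 333 and 99.0 to 307 CPM.

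The immunoproteasome subunits were close to the limit of detection. PSMB10 stood at 6.36 CPM with acetaminophen plus exosomes, 5.56 with arsenic plus copper, 5.15 with caffeine, 5.02 with arsenic 15 µM, 3.29 with exosomes, 1.89 with acetaminophen plus caffeine, 1.28 with arsenic 5 µM and 0.965 in the control, with 0 counts with acetaminophen. PSMB8 had 20 counts with caffeine (2.34 CPM), 3 or 4 counts with exosomes and with each of the 3 arsenic treatments, 1 with acetaminophen plus exosomes, and 0 in the control, with acetaminophen and with acetaminophen plus caffeine. PSMB9 had between 0 and 4 counts, at most 2.54 CPM. All 3 were thus far below PSMB5, PSMB6 and PSMB7 in all 9 libraries. Of the counts on these 6 genes, the immunoproteasome share was 1.54% with caffeine (66 of 4275, exact Clopper-Pearson 95% interval 1.20% to 1.96%), 1.49% with acetaminophen plus exosomes (0.647% to 2.92%), 1.27% with arsenic 5 µM (0.610% to 2.32%) and 0.195% in the control (2 of 1026, 0.0236% to 0.702%). With acetaminophen it was 0 of 715 counts, with an exact interval up to 0.515% (3 counts would be 0.420%). The shares were 0.561% with exosomes, 0.489% with acetaminophen plus caffeine, 0.677% with arsenic 15 µM and 0.728% with arsenic plus copper. The caffeine interval lay above that of the control, whose interval overlapped those of the other 7 libraries. PSMB10 shares 45.3% of its transcript with a neighbouring gene on the same strand. The spermatogenic markers and FOXN1, a thymic epithelial factor, listed for PSMA8 and PSMB11, were at or below 0.965 CPM.

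**Figure D3:**
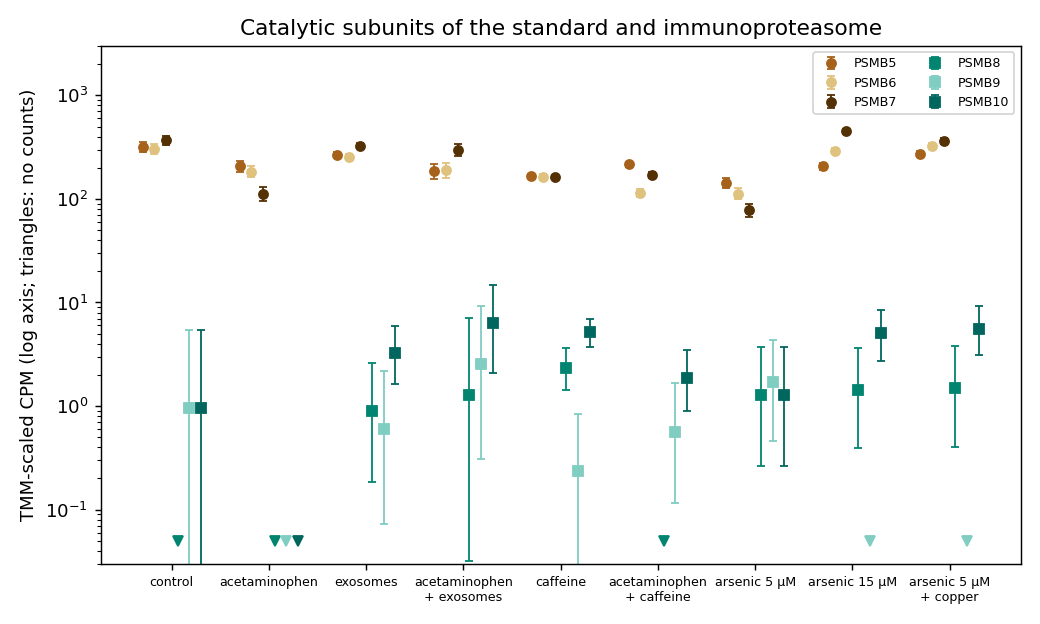
TMM-scaled CPM on a log axis of PSMB5, PSMB6 and PSMB7 (circles) and of PSMB8, PSMB9 and PSMB10 (squares) in each library, with exact Poisson 95% counting intervals and triangles for libraries with no counts. The circles lie between 77.4 and 450.0 CPM in all 9 libraries, and no square exceeds 6.36 CPM.

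The 19S ATPases thread the substrate into the core. PSMC3 stood at 1281 CPM with arsenic 5 µM, 460.3 in the control, 374 with acetaminophen, 333 with exosomes, 322 with acetaminophen plus exosomes, 303 with arsenic plus copper, 296 with arsenic 15 µM, 150.5 with caffeine and 147 with acetaminophen plus caffeine. PSMC3 with arsenic 5 µM was 2.78 times the control (95% counting interval 2.53 to 3.07), while the caffeine libraries were the lowest. PSMC4 was 539 CPM with arsenic plus copper, 503 with arsenic 15 µM, 311 in the control, 259.5 with exosomes, 217 with acetaminophen plus caffeine, 209.8 with acetaminophen plus exosomes, 194 with arsenic 5 µM, 171 with caffeine and 166 with acetaminophen. PSMC4 was highest in the other arsenic libraries, at 1.74 times (1.54 to 1.96) the control with copper and 1.62 times (1.43 to 1.83) at 15 µM. PSMC5 stood at 253 CPM in the control, 226 with arsenic plus copper, 222 with exosomes, 147 with arsenic 15 µM, 144 with acetaminophen plus exosomes, 125 with caffeine, 99.7 with acetaminophen plus caffeine, 68.8 with acetaminophen and 41.7 with arsenic 5 µM. PSMC6 was 138 CPM with arsenic 15 µM, 107 with exosomes, 99.4 in the control, 89.1 with acetaminophen, 87.5 with arsenic plus copper, 72.5 with acetaminophen plus exosomes, 60.0 with arsenic 5 µM, 45.3 with caffeine and 28.6 with acetaminophen plus caffeine. PSMC5 was lowest with arsenic 5 µM and PSMC6 with acetaminophen plus caffeine, so the 6 ATPases did not share 1 order of libraries. PSMC1 and PSMC2 had ranges of 31.1 to 147 and 71.0 to 250.5 CPM, both with arsenic 5 µM lowest.

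The non-ATPase subunits include the scaffold protein PSMD2, the lid subunit PSMD12 and the ubiquitin receptors PSMD4 and ADRM1. PSMD2 stood at 1491 CPM with arsenic 15 µM, 863 with arsenic plus copper, 653 with acetaminophen, 644 with exosomes, 630.1 in the control, 579.9 with acetaminophen plus exosomes, 457 with arsenic 5 µM, 452 with acetaminophen plus caffeine and 323 with caffeine. PSMD12 was 139.5 CPM with arsenic 15 µM, 84.2 with arsenic 5 µM, 65.7 with arsenic plus copper, 65.1 with exosomes, 60.4 with acetaminophen, 53.1 in the control, 52.5 with caffeine, 48.3 with acetaminophen plus exosomes and 31.1 with acetaminophen plus caffeine. ADRM1 stood at 583 CPM with arsenic 15 µM, 404 with arsenic plus copper, 293 in the control, 250.1 with acetaminophen plus caffeine, 229.6 with caffeine, 228 with exosomes, 201 with acetaminophen plus exosomes, 182 with acetaminophen and 157 with arsenic 5 µM. All 3 were highest with arsenic 15 µM, and PSMD2 and ADRM1 had arsenic plus copper next. PSMD4 was 282 CPM in the control, 213 with arsenic plus copper, 206 with exosomes, 199 with acetaminophen, 173 with acetaminophen plus exosomes, 151 with caffeine, 143 with arsenic 5 µM, 134 with acetaminophen plus caffeine and 82.8 with arsenic 15 µM. The other receptor, PSMD4, thus took the opposite place, with arsenic 15 µM lowest. PSMD8 stood at 306 CPM in the control, 306 with arsenic 15 µM, 284 with acetaminophen plus exosomes, 239 with arsenic plus copper, 224 with acetaminophen plus caffeine, 204 with exosomes, 94.4 with caffeine, 24.7 with arsenic 5 µM and 24.6 with acetaminophen. PSMD8, a lid subunit, was nearly equal in the acetaminophen and arsenic 5 µM libraries at 24.6 and 24.7 CPM, and the next library, caffeine, stood at 94.4. PSMD3, another lid subunit named here after its values were seen, was 896 CPM with arsenic 5 µM and between 227 and 456 in the other 8 libraries. The remaining non-ATPase genes were PSMD1, PSMD6, PSMD7, PSMD11, PSMD13 and PSMD14, and their highest level was 1.99 (PSMD13) to 4.26 (PSMD14) times their lowest.

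The activators open the core without the 19S cap: PSME1 and PSME2 form the PA28 alpha-beta ring, PSME3 forms the nuclear PA28 gamma ring, and PSME4 is PA200. PSMF1 is the inhibitor PI31. PSME4 was 344 CPM with arsenic 15 µM, 269.6 with arsenic 5 µM, 269.5 with acetaminophen, 178 with arsenic plus copper, 176 with exosomes, 138 with acetaminophen plus caffeine, 129.7 with acetaminophen plus exosomes, 128 with caffeine and 107 in the control. PSME4 was lowest in the control. PSME1 stood at 155 CPM in the control, 106 with exosomes, 87.5 with acetaminophen plus caffeine, 85.7 with caffeine, 85.2 with acetaminophen plus exosomes, 83.1 with arsenic plus copper, 44.8 with arsenic 15 µM, 42.8 with acetaminophen and 24.2 with arsenic 5 µM. PSME1 was highest in the control, and the 3 libraries with the lowest PSME1 were the 3 with the highest PSME4. PSME3 was 349.6 CPM with acetaminophen, 287 with arsenic 5 µM, 256 with exosomes, 218 in the control, 152 with arsenic plus copper, 144 with acetaminophen plus caffeine, 142 with caffeine, 118 with acetaminophen plus exosomes and 74.2 with arsenic 15 µM. PSME3 was highest with acetaminophen and lowest with arsenic 15 µM. PSMF1 stood at 149.6 CPM in the control, 148 with arsenic plus copper, 144 with caffeine, 134 with acetaminophen plus caffeine, 127 with arsenic 15 µM, 122 with acetaminophen, 118 with arsenic 5 µM, 113 with exosomes and 80.1 with acetaminophen plus exosomes. The inhibitor varied 1.87-fold between its highest and lowest library, the least of the 47 genes tested. PSME2, the partner of PSME1, ranged from 30.6 CPM with arsenic 5 µM to 132 with acetaminophen plus caffeine.

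Assembly requires POMP, the maturation factor of the core, the chaperones PSMG1 to PSMG4, which help to build the alpha ring, and PSMD5, PSMD9 and PSMD10, which assemble the base of the cap. POMP was 108 CPM with acetaminophen plus exosomes, 90.7 in the control, 83.5 with arsenic 15 µM, 81.5 with exosomes, 62.0 with arsenic plus copper, 41.4 with acetaminophen, 30.2 with arsenic 5 µM, 28.8 with caffeine and 17.9 with acetaminophen plus caffeine. POMP was lowest in both caffeine libraries and with arsenic 5 µM. PSMG1 stood at 91.4 CPM with arsenic 5 µM, 75.1 with acetaminophen, 31.8 in the control, 30.8 with arsenic plus copper, 28.4 with exosomes, 26.7 with acetaminophen plus exosomes, 17.9 with caffeine, 12.2 with arsenic 15 µM and 9.99 with acetaminophen plus caffeine. PSMG1 was highest in the arsenic 5 µM and acetaminophen libraries and low with arsenic 15 µM. PSMD5 was 69.5 CPM in the control, 63.6 with exosomes, 61.4 with caffeine, 56.9 with acetaminophen, 51.5 with arsenic 5 µM, 44.9 with arsenic plus copper, 40.7 with acetaminophen plus exosomes, 28.8 with acetaminophen plus caffeine and 24.7 with arsenic 15 µM. PSMD10 stood at 25.6 CPM with arsenic plus copper, 25.4 with exosomes, 24.7 with arsenic 15 µM, 22.5 with acetaminophen, 22.2 in the control, 17.0 with arsenic 5 µM, 14.7 with caffeine, 11.7 with acetaminophen plus caffeine and 11.4 with acetaminophen plus exosomes. PSMD5 was lowest with arsenic 15 µM, and PSMD10 varied 2.24-fold. PSMD9, whose transcript shares 43.8% with a neighbouring gene on the same strand, had 3 counts in the control and 61 with arsenic 15 µM, or 2.90 and 21.9 CPM. PSMG2, PSMG3 and PSMG4 ranged from 17.0 to 131 CPM, 14.7 to 55.0 CPM and 2.98 to 11.4 CPM. The PSMG4 values rest on 7 to 97 counts per library.

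Libraries were next compared in pairs. A gene was counted as apart when its ratio, with 0.5 counts added to each library, was at least 2 either way and the exact conditional binomial 95% interval of the ratio excluded 1. Each count compares 2 libraries, not 2 conditions, and the 6 comparisons with the control share that library, as do other pairs below their own reference.

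With acetaminophen alone, 3 of 47 genes were apart above the control (13% of all genes tested) and 12 below (12.1%). The higher genes were PSMA5, PSME4 and PSMG1. The lower genes were PSMA3 and PSMA7, PSMB2, PSMB4 and PSMB7, PSMC1 and PSMC5, PSMD8, PSME1 and PSME2, and POMP and PSMG3. PSMD8 stood at 0.0803 of the control (0.0549 to 0.114), PSMB4 at 0.119 (0.0966 to 0.145) and PSME4 at 2.52 times it (2.03 to 3.14). The median log2 ratio was -0.43 against -0.20 for all genes tested, and -0.10 against 0.05 for protein-coding genes after a trend on GC content and transcript length was removed. Across the 47 genes the log2 ratio had a Pearson r of -0.42 with GC content and 0.43 with log2 length, as a description of genes within the same libraries. With the 3 genes that had no acetaminophen counts set to 3 counts, the median was -0.30.

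Acetaminophen was also compared on exosome and caffeine backgrounds. Against exosomes alone, acetaminophen plus exosomes had 0 genes apart above (5.22% of all genes) and 4 below (5.17%), namely PSMA6, PSMD6, PSMD10 and PSME3, with PSME3 at 0.462 (0.369 to 0.573). With DESeq2's size factors, or with TMM over protein-coding genes alone, 1 gene was apart. Against caffeine alone, acetaminophen plus caffeine had 1 above (12.6%) and 3 below (13%). The 1 above was PSMD8, at 2.37 times (2.17 to 2.60), and those below were PSMD5, PSMB8 and PSMB10. PSMD8 was therefore far below its reference with acetaminophen alone and above it on caffeine, and 0.48 above on the log2 scale on exosomes. The medians were -0.28 against 0.05 for all genes on exosomes and -0.16 against 0.00 on caffeine.

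With exosomes alone, 0 of 47 genes were apart from the control in either direction. The shares over all genes were small as well, at 3.58% above and 1.44% below. The median log2 ratio was -0.16 against 0.00 for all genes. With DESeq2's size factors the 2 medians were -0.32 and -0.17. The lowest bound was that of PSMA7, at 0.673 of the control (0.609 to 0.744), and the highest that of PSME4, at 1.64 (1.34 to 2.03). On the acetaminophen background, acetaminophen plus exosomes had 9 genes apart above acetaminophen alone (10.2%) and 4 below (8.89%). PSMD8 was 11.5 times higher (8.06 to 17.0), PSMB4 6.80 times (5.51 to 8.44) and PSMA7 4.08 times (3.29 to 5.08), and PSME3 stood at 0.338 (0.268 to 0.423). PSME3 stood at 118 CPM with acetaminophen plus exosomes, 349.6 with acetaminophen and 218 in the control. The median of the pair was 0.05 against 0.19 for all genes. After removal of the GC and length trend it was -0.22 against -0.10 for protein-coding genes, with 6 genes apart above and 5 below.

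Among the 12 library pairs, caffeine against control had the most genes on 1 side of 0. Acetaminophen plus exosomes against exosomes had 35 of 47 genes below 0, and acetaminophen against control 33. For caffeine, 40 of 47 genes had a log2 ratio to the control below 0, and 51.2% of all genes lay above 0. None was apart above (11.6% of all genes) and 15 were apart below (8.63%): PSMA3, PSMA4 and PSMA7, PSMB1, PSMB4 and PSMB7, PSMC1, PSMC3, PSMC5 and PSMC6, PSMD6, PSMD8 and PSMD14, POMP and PSMG3. None of the 5 activator and inhibitor genes was among them, and PSME4 stood at 1.20 times the control (0.983 to 1.47). PSMB4 was at 0.229 (0.208 to 0.251), PSMA7 at 0.301 (0.273 to 0.332) and POMP at 0.317 (0.249 to 0.407). The median was -0.86 against 0.03 for all genes. With DESeq2's size factors, which moved the all-gene median to -0.15, it was -1.04 with 24 genes apart. After removal of the GC and length trend it was -0.41 against 0.18 for protein-coding genes, with 9 apart, 2 of them above.

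With acetaminophen plus caffeine against acetaminophen alone, 6 genes were apart above (18.8%) and 12 below (15%), and the median was -0.57 against -0.02. PSMG1 was at 0.133 (0.0938 to 0.187), PSMC3 at 0.392 (0.351 to 0.439) and POMP at 0.432 (0.309 to 0.609), while PSMD8 was 9.11 times higher (6.52 to 13.2) and PSMB4 3.18 times (2.62 to 3.89). After removal of the GC and length trend 11 genes were apart, 3 above and 8 below, with a median of -0.20 against 0.02 for protein-coding genes. PSMB4, PSMA7 and PSMD8 thus lay above their reference on acetaminophen and below it in the untreated background, and all 3 were at their low end in the acetaminophen library that served as the reference.

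**Figure D4:**
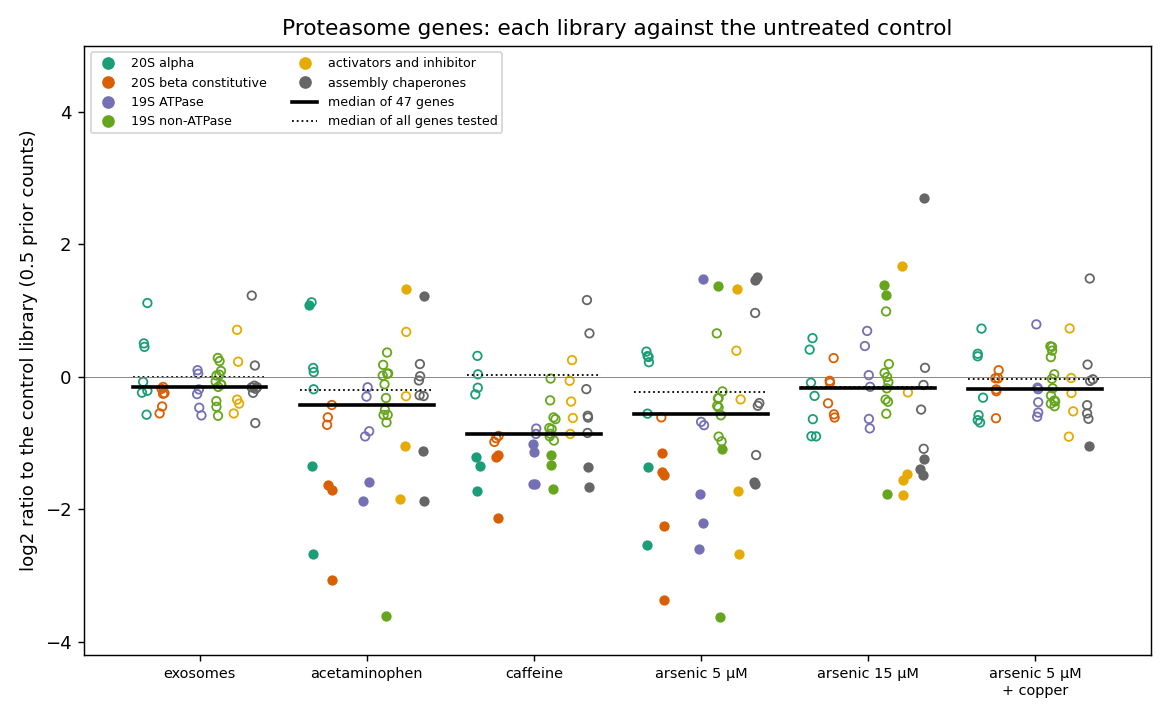
Log2 ratio to the control library, with 0.5 counts added, for 44 proteasome genes (PSMB8, PSMB9 and PSMB10, with at most 1 control count, are not drawn), coloured by role; filled points are apart and open points are not. Thick lines give the median of all 47 genes and dotted lines that of all genes tested: for caffeine they stand at -0.86 and 0.03, and for arsenic 15 µM at -0.17 and -0.16.

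Arsenic at 5 µM gave 21 genes apart from the control, 5 above (16.4% of all genes) and 16 below (15%). The higher genes were PSMC3, PSMD3, PSME4, PSMG1 and PSMG2. The lower ones included 5 of the 6 constitutive beta subunits, all except PSMB2, together with PSMA3, PSMA7, PSMC1, PSMC2, PSMC5, PSMD8, PSMD11, PSME1, PSME2, POMP and PSMG3. PSMB4 was at 0.0963 of the control (0.0802 to 0.115), PSMD8 at 0.0806 (0.0599 to 0.107), PSMB5 at 0.449 (0.384 to 0.524) and PSME1 at 0.156 (0.113 to 0.212). PSMD3 was 2.59 times higher (2.31 to 2.90) and PSMG1 2.87 times (1.98 to 4.28). The median was -0.56 against -0.22 for all genes.

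The arsenic 5 µM and acetaminophen libraries, the 2 richest in small nucleolar RNA, shared the low end of the range for some genes. They were the 2 lowest of the 9 libraries for 8 of 47 genes, against 9.62% of all genes tested: ADRM1, PSMA7, PSMB4, PSMB7, PSMC5, PSMD8, PSME1 and PSMG3. They were the 2 highest for 3 of 47 genes, PSMA5, PSME3 and PSMG1, a smaller share than the 9.12% of all genes tested. The part of the small nucleolar RNA share in these levels was not tested. Without both libraries, edgeR's additive coefficients had a member median of -0.89 for caffeine, below the -0.55 with all libraries.

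At 15 µM arsenic the TMM-scaled sum of the genes equalled the control (ratio 1.00), but single genes parted in both directions. Above the control were 4 genes (16.5% of all genes): PSME4 at 3.21 times (2.64 to 3.95), PSMD12 at 2.63 (1.98 to 3.55), PSMD2 at 2.37 (2.18 to 2.57) and PSMD9 at 7.56 (2.47 to 37.7, from 3 control counts). ADRM1 stood just below the limit of 2 at 1.99 times (1.76 to 2.25). Below were 7 (14.4%): PSMD4 at 0.294 (0.246 to 0.351), all 3 PA28 genes, with PSME1 at 0.288 (0.227 to 0.367), PSME2 at 0.361 (0.272 to 0.479) and PSME3 at 0.340 (0.281 to 0.413), and the chaperones PSMD5 at 0.356 (0.252 to 0.502), PSMG1 at 0.383 (0.230 to 0.638) and PSMG3 at 0.424 (0.292 to 0.616). No 20S subunit and no 19S ATPase was apart. In this 1 library the PA200 gene thus stood above the control and the 3 PA28 genes below. These genes were named from the same values, and the counts apart were not tested against the shares of all genes. The median over all 47 genes was -0.17 against -0.16 for all genes tested. After removal of the GC and length trend the balance turned, with 9 genes apart above and 5 below.

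The promoter letters occurred in genes of both directions. Of the 4 genes apart above the control at 15 µM that had a window, 3 held TGACNNNGC (PSMD12, PSMD9 and PSME4), and of the 5 apart below with a window, 4 held it (PSMD5, PSME1, PSME2 and PSMG1). With arsenic 5 µM against the control, 4 of 5 higher genes with a window held it (PSMD3, PSME4, PSMG1 and PSMG2). Of the 11 lower genes, 2 did (PSME1 and PSME2). With acetaminophen alone it was 2 of 3 higher genes and 2 of 9 lower genes. In the caffeine comparison 0 of the 11 lower genes with a window held it. A relation between the letters and direction was not tested. The printed matches of PSME4 and PSME1 thus sit before genes at opposite ends of the 15 µM comparison.

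Against arsenic 5 µM, the 15 µM library had 15 genes apart above (19.6%) and 6 below (17.5%), with a median of 0.47 against -0.03. PSMD8 was 12.4 times higher (9.49 to 16.5), PSMB4 9.77 times (8.27 to 11.6), ADRM1 3.71 times (3.31 to 4.17) and PSMD2 3.26 times (3.05 to 3.49). PSMG1 was at 0.133 (0.0900 to 0.192), PSMC3 at 0.231 (0.214 to 0.250) and PSME3 at 0.259 (0.220 to 0.303). Each dose has 1 culture, so dose and library cannot be told apart.

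With copper beside 5 µM arsenic, PSMG3 alone was apart from the control, at 0.486 (0.338 to 0.700), against 7.1% of all genes below and 9.26% above. The highest bound was that of PSMC4 and the lowest that of PSME1, at 0.535 (0.435 to 0.659), and the median was -0.19 against -0.03. After removal of the GC and length trend the median was 0.17 against 0.20 for protein-coding genes, with 4 genes apart, all above. Against arsenic 5 µM alone, 14 genes were apart above (16.5%) and 3 below (13.7%), with a median of 0.57 against -0.12. PSMB4 was 9.10 times higher (7.70 to 10.8), PSMD8 9.68 times (7.40 to 12.9) and PSME1 3.43 times (2.55 to 4.67), and the 3 lower genes were PSMC3 at 0.237 (0.219 to 0.256), PSMG1 and PSMG2.

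To use all 9 libraries at once, an additive model with terms for acetaminophen, exosomes, caffeine and arsenic was fitted to all genes. Departures from additive effects served as the spread. The arsenic term took the 3 arsenic libraries together, so differences of dose and copper between them entered the spread used for every term. edgeR's quasi-likelihood test with Benjamini-Hochberg adjustment called 0 of the 47 genes in each of the 4 terms, against 0.0219%, 0%, 0.0823% and 0.494% of all genes tested for acetaminophen, exosomes, caffeine and arsenic. At an unadjusted p under 0.05 edgeR had 0, 1, 5 and 0 members, against 5.35%, 0.62%, 7.31% and 9.16% of all genes. Leaving out 1 library moved the caffeine count of 5 to between 0 (without acetaminophen plus caffeine) and 7 (without arsenic 5 µM), and it was 1 without acetaminophen, exosomes or caffeine, 2 without acetaminophen plus exosomes and 3 without arsenic plus copper. It was 13 without both libraries rich in small nucleolar RNA. DESeq2 called 0 members in each term, against 0.35%, 0%, 0.384% and 1.39% of the genes it gave an adjusted p. At an unadjusted p under 0.05 DESeq2 had 0, 0, 8 and 0 members, against 5.13%, 0.45%, 6.42% and 8.36% of all genes. The median log2 fold change of the members was -0.34 for acetaminophen (all genes -0.04), 0.00 for exosomes (0.08), -0.55 for caffeine (0.12) and -0.20 for arsenic (0.07). Of 47 coefficients, 39 lay below 0 in the acetaminophen term, 29 in the arsenic term and 23 in the exosomes term. In the caffeine term 38 of 47 coefficients lay below 0, and 54.2% of all genes lay above 0. The 5 members with an unadjusted p under 0.05 there were PSMG1 (log2 fold change -1.91, SE 0.80), PSMD14 (-1.65, SE 0.70), POMP (-1.46, SE 0.69), PSMA4 (-1.45, SE 0.70) and PSMC6 (-1.39, SE 0.67), with edgeR adjusted p-values from 0.609 to 0.677. The lowest member p in the arsenic term was that of PSMD9 (1.91, SE 0.96, edgeR adjusted p = 0.557). In a fit of the 6 libraries without arsenic, edgeR called 0 members. Of 17393 genes it called 249 for acetaminophen, 3 for exosomes and 292 for caffeine. The lowest member edgeR adjusted p in that fit was 0.0862, in the caffeine term.

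Further terms, each resting on 1 library, were added singly. For arsenic at 15 µM, copper, acetaminophen with exosomes and acetaminophen with caffeine, edgeR called 0 members against 1.09%, 0%, 0% and 0% of all genes, and DESeq2 called 0 members against 0.918%, 0%, 0% and 0% of the genes it gave an adjusted p. At an unadjusted p under 0.05 edgeR had 1, 0, 0 and 0 members, against 10.1%, 2.35%, 0.477% and 1.09% of all genes. DESeq2 had 2, 0, 0 and 0 at that limit, against 7.77%, 1.74%, 0.345% and 0.576%. The 1 member was PSMG1 at 15 µM, with a log2 fold change of -2.32 (SE 0.91, edgeR adjusted p = 0.245). The arsenic 5 µM level of PSMG1, 91.4 CPM, and its 15 µM level, 12.2 CPM, lie on opposite sides of the control.

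Genes around the proteasome were read from lists fixed with earlier results of these data known. Among 9 regulators (NFE2L1, NFE2L2, NFE2L3, DDI2, NGLY1, AKIRIN2, MAFG, MAFF and MAFK), edgeR called 0 in each of the 4 terms, and the arsenic median was 0.78 against 0.07 for all genes. NFE2L1 was 324 CPM with acetaminophen plus caffeine, 318 with arsenic plus copper, 300.5 with arsenic 15 µM, 295 with arsenic 5 µM, 255 with caffeine, 216 with acetaminophen plus exosomes, 198 with acetaminophen, 169.9 with exosomes and 144 in the control. NFE2L1, the regulator of subunit genes, was lowest in the control. MAFK stood at 186 CPM with arsenic 15 µM, 98.2 with arsenic 5 µM, 53.4 with arsenic plus copper, 23.6 with acetaminophen plus caffeine, 18.2 with acetaminophen, 15.8 with exosomes, 15.6 with caffeine, 12.5 in the control and 10.2 with acetaminophen plus exosomes. MAFK, a small partner of such factors, had its 3 highest levels in the 3 arsenic libraries and the largest arsenic coefficient of the list (2.98, SE 0.79, edgeR adjusted p = 0.0759). MAFF, a related partner chosen after its values were seen, stood at 313 CPM with arsenic 15 µM and at 3.39 to 45.6 CPM in the other 8 libraries. In the added term for arsenic at 15 µM, which rests on 1 library, MAFF had a coefficient of 3.39 (SE 0.77). Calls of these lists in the added terms are not reported here.

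Of 16 proteasome-associated receptors, shuttles and deubiquitinases, 15 were tested and 1, ZFAND2A, was called higher for arsenic. ZFAND2A was 1643 CPM with arsenic 15 µM, 198 with arsenic plus copper, 39.8 with acetaminophen plus caffeine, 37.9 with arsenic 5 µM, 36.7 in the control, 29.02 with caffeine, 28.96 with exosomes, 28.0 with acetaminophen plus exosomes and 7.02 with acetaminophen. ZFAND2A, also known as AIRAP, is an arsenite-inducible protein that binds the 19S cap, and its level was high in the 15 µM and copper libraries but not with arsenic 5 µM alone. The arsenic coefficient was 4.73 (SE 1.09, edgeR adjusted p = 0.0315). Without the control it was 6.70 with an edgeR adjusted p of 0.671, without acetaminophen 4.14 (0.359), without acetaminophen plus exosomes 4.69 (0.245) and without arsenic 15 µM 2.32 (0.093). The edgeR adjusted p was also above 0.05 with DESeq2's size factors (0.103), over protein-coding genes alone (0.102), without both libraries rich in small nucleolar RNA (0.0517) and over the control and arsenic libraries alone (0.956), with coefficients from 4.06 to 4.71. In the added term for arsenic at 15 µM, which rests on 1 library, ZFAND2A had a coefficient of 3.80 (SE 0.85). USP14, a deubiquitinase of the cap, ranged from 33.4 CPM with arsenic plus copper to 151 with arsenic 5 µM. It was not called in the 4 additive terms.

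None of 5 ubiquitin and E1 genes, the 8 genes of p97 and its cofactors or the 11 interferon and antigen presentation genes was called by edgeR in any of the 4 terms. UBB stood at 2385 CPM with arsenic 15 µM, 1934 with arsenic 5 µM, 1350 with acetaminophen plus caffeine, 1305 with arsenic plus copper, 982 in the control, 895 with caffeine, 784 with exosomes, 612 with acetaminophen plus exosomes and 343 with acetaminophen. UBB, which encodes a precursor of ubiquitin, was highest with arsenic 15 µM and lowest with acetaminophen, with an arsenic coefficient of 1.38 (SE 0.80, edgeR adjusted p = 0.654). NPLOC4 was 591 CPM with arsenic 15 µM, 561 with arsenic plus copper, 543 with arsenic 5 µM, 446 with acetaminophen plus caffeine, 312 with exosomes, 292 with acetaminophen, 287 in the control, 276 with caffeine and 207 with acetaminophen plus exosomes. NPLOC4, a cofactor of the p97 segregase, had its 3 highest levels in the 3 arsenic libraries and an arsenic coefficient of 0.99 (SE 0.75, edgeR adjusted p = 0.761). HLA-C stood at 26.3 CPM with arsenic plus copper, 17.9 with arsenic 15 µM, 16.4 with acetaminophen plus caffeine, 15.3 with acetaminophen plus exosomes, 9.12 with acetaminophen, 9.01 with caffeine, 8.08 with arsenic 5 µM, 5.79 in the control and 5.08 with exosomes. HLA-C, a peptide-presenting molecule whose count is uncertain because its sequence is close to that of other HLA genes, had an arsenic coefficient of 1.80 (SE 0.83, edgeR adjusted p = 0.498). The arsenic medians of the 3 lists were 0.17, 0.22 and 0.49, against 0.07 for all genes. The proteasome genes had -0.20, which ran from -0.36 without arsenic 15 µM to 0.09 without the control.

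**Figure D5:**
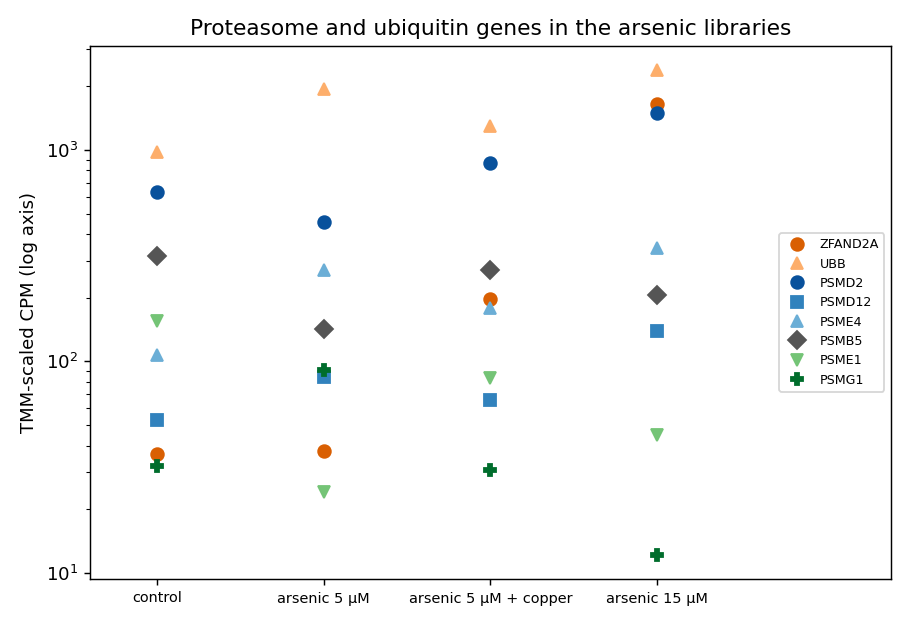
TMM-scaled CPM on a log axis of ZFAND2A and UBB and of 6 proteasome genes in the control and the 3 arsenic libraries. From control to arsenic 15 µM, ZFAND2A stands at 36.7 and 1643 CPM, UBB at 982 and 2385, PSMD2 at 630.1 and 1491, PSMB5 at 316 and 206 and PSME1 at 155 and 44.8.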

How the data were processed

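Total RNA of 9 HuH-7 cultures was depleted of ribosomal RNA and sequenced, 1 library per condition. The files deposited by the authors hold unnormalised counts of reads for each Ensembl identifier. TopHat2 2.0.13, HTSeq 0.6.1 and GRCh37 are named in the submitters' processing notes; the annotation release, strand setting and filters are not stated there. HTSeq summary lines, 42.3% to 70.3% of reads, were left out of library sizes.

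Symbols, gene types, transcript lengths, GC content and exon sharing came from GENCODE 29, which uses GRCh38; no coordinate was converted. Genes with at least 1 CPM in 2 libraries (18237) were scaled by TMM and fitted with edgeR 4.0.16 (R 4.3.3) with 4 additive terms, leaving 4 residual degrees of freedom, or 3 with an added term. The common dispersion was 0.283. Calls were made at a Benjamini-Hochberg adjusted p under 0.05 over all genes. The SE is the size of the log2 fold change over the root of its quasi-likelihood F value. DESeq2 1.42.0 was run beside it. The fit was tested on simulated data with a dispersion below that of these libraries and with large fold changes. That test does not show how often changes of the size seen in the members would be called. Poisson and binomial 95% intervals used scipy 1.17.1.

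The members and lists were chosen with earlier results of these data known. Genes given in all libraries were, per role, the 2 highest and 1 lowest in the ratio of arsenic 15 µM to control with at least 10 control counts, PSMB5 to PSMB10, POMP, ADRM1, PSMF1 and PSME4, and for each of 12 library pairs the gene with the farthest interval bound in each direction. Of the other lists they were called genes, ZFAND2A, NFE2L1, USP14 and UBB, and the member with the largest arsenic coefficient in each list. MAFF, PSMD3, PSMD9, PSME2, PSMG2, PSMG3 and PSMG4 were given values after these were seen. The ubiquitin list is given without 1 gene, which is not reported here. Alternatives were DESeq2 or its size factors, protein-coding genes alone, all genes unfiltered, 2 prior counts, removal of a GC and length trend and each library left out in turn.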

Additional observations from a re-analysis of the deposited data

How the results depend on the processing

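No paired analysis was possible because each condition has 1 library. edgeR called 0 members in the 4 additive terms under every alternative that was run, and 209 of 228 alternative values of the medians and counts stayed within the interval or the 1.5-fold limit of the main value. Leaving out 1 library at a time moved the member median from -0.414 to -0.277 for acetaminophen, -0.134 to 0.0954 for exosomes, -0.763 to -0.425 for caffeine and -0.36 to 0.0929 for arsenic, where the highest value was the one without the control; members called were 0 throughout. Without both libraries rich in small nucleolar RNA, an alternative chosen after seeing the data, the medians were -0.244 for exosomes and -0.886 for caffeine. The 228 values include the counts of members called, which were 0 in every fit. All values that moved were medians or counts of genes apart. The interval is the order-statistic interval of the median over the members and does not cover variation between cultures. The cause of the moves below was not tested. With DESeq2's size factors the median log2 ratio was -0.129 for acetaminophen plus exosomes against exosomes, -0.32 for exosomes against control and -1.04 for caffeine against control, and genes apart numbered 1, 0 and 24. For exosomes against control the median was -0.257 with TMM over protein-coding genes alone, -0.288 with no count filter and 0.0649 with the GC and length trend removed. That removal gave -0.103 for acetaminophen against control, -0.412 for caffeine against control and 0.169 for arsenic plus copper against control, with 9 genes apart for caffeine, 4 for arsenic plus copper and 11 for acetaminophen plus caffeine against acetaminophen. For arsenic plus copper against control 2 genes were apart with size factors and 2 with TMM over protein-coding genes, which also left 1 apart for acetaminophen plus exosomes against exosomes. Size factors moved the median of all genes tested from -0.00 to -0.17 for exosomes and from -0.03 to -0.19 for arsenic plus copper, each against control. With 3 counts in place of each 0, the control comparisons had medians of -0.15 (exosomes), -0.86 (caffeine), -0.58 (arsenic 5 µM), -0.17 (arsenic 15 µM) and -0.18 (arsenic plus copper). ZFAND2A passed the arsenic threshold in 7 of 15 alternatives, with coefficients from 2.32 to 6.7. Depth limits PSMB8 to PSMB10, PSMA2, PSMD9 and PSMG4, with 16 or fewer counts in several libraries.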
